A study of Mus musculus with 40 samples.

Results

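The genes described here are 4 myogenic regulatory factors (Myod1, Myog, Myf5 and Myf6), the paired-box factor Pax7 and the growth factor myostatin (Mstn), which make 6 of the 23621 gene rows of the deposited table. They were chosen by name. The data are mRNA sequencing of C57BL/6 mouse muscle, with 24 quadriceps and 16 gastrocnemius libraries. Quadriceps gave 8 groups of 3. In 4 of them mice were sedentary and killed at zeitgeber time (ZT, hours after lights on) 0, 4, 12 or 16. In the other 4, mice had run to exhaustion on a treadmill, starting from a session named ZT0 or ZT12, and were killed at once (+0h, labelled sampling times ZT0.5 and ZT12.5) or 3 h later (+3h, labelled ZT3.5 and ZT15.5). Gastrocnemius gave 4 groups of 4, from mice whose wheel was open by night or by day, killed at ZT4 or ZT16. The labels give no sex, age or duration of the wheel period, and no gastrocnemius group without a wheel was analysed here, so the night-wheel groups, titled as controls, are the reference in that muscle. Quadriceps and gastrocnemius came from different experiments, so levels in the 2 muscles are set side by side and not tested against each other.

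The myogenic regulatory factors are basic helix-loop-helix proteins that bind E-boxes together with partners such as Tcf3 and Tcf12 and switch on muscle genes. MyoD and Myf5 commit cells to the muscle lineage, myogenin drives their differentiation, and Myf6 (also called MRF4) is the family member that remains abundant in adult fibres. Pax7 marks satellite cells, the stem cells that lie along each fibre, and Pax3 is its close relative. Myostatin is secreted by muscle fibres, is released from its propeptide by proteases, binds activin type II receptors, signals through Smad2 and Smad3, and restrains muscle growth.

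Myod1 (gene identifier 17927) lies on chromosome 7 at 46376474 to 46379092 on the plus strand of GRCm38.p6, and Myog (17928) on chromosome 1 at 134290004 to 134292548, also plus. Myf5 (17877, 107482908 to 107486927) and Myf6 (17878, 107492848 to 107494723) are neighbours on the minus strand of chromosome 10, with 5920 bases between them. Pax7 (18509) spans chromosome 4, 139737059 to 139833530, minus strand, and Mstn (17700) chromosome 1, 53061640 to 53068079, plus strand. The promoters of Myog and Mstn are shown because the results turn on the contrast between their genes: Myog gave the largest rise among the 6 genes after a run, and Mstn was called in no comparison by the test described below. Both were read from RefSeq's promoter table (GRCm38.p6), plus strand, and end at the last base upstream of any annotated transcript of the gene. Capitals mark E-boxes (CANNTG, which reads the same on both strands).

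Myog promoter, chr1:134289754-134289988: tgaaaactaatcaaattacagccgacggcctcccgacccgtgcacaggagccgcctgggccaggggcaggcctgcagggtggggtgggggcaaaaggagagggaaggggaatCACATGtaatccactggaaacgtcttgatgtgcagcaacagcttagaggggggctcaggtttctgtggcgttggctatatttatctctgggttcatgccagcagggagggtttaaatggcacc
Mstn promoter, chr1:53061390-53061639: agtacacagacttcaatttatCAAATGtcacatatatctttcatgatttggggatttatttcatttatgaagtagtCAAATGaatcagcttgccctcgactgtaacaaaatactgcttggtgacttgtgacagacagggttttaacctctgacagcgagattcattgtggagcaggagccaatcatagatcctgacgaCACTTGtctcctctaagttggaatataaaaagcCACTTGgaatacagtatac

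The Myog window held the E-box CACATG at position -138 from RefSeq's start, and another, CAGTTG, at -12. The latter is not shown because GENCODE begins the transcript 15 bases earlier. The Mstn window held CAAATG at -229 and -174 and CACTTG at -52 and -19. At least 1 E-box stood in the 250 bases before the start of 66.2% of 32851 promoters, with a median of 1. The windows of Myf5 and Pax7 in the same table held none, and they are not shown because they lie inside the annotated span of the gene. A match in these windows is a description of letters, not of binding.

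A quadriceps library held 27352875 to 79491649 estimated counts, with the fewest in replicate 3 of treadmill +0h ZT0, and a gastrocnemius library 45010256 to 70033483. Markers of muscle fibres were abundant in every library, with a summed level of 115503 to 154270 CPM (counts scaled to the library's total) over 8 genes. Muscle is a mixed tissue, and several marker sums varied between libraries: 9 slow fibre markers summed to 87.5 to 2656 CPM in quadriceps and 7 adipocyte markers to 93.1 to 1535 CPM, against 557 to 2042 and 43.4 to 84.6 CPM in gastrocnemius. Neutrophil markers stood at 4.49 CPM or less in sum, and Ly6g was at 0 in every library of 7 groups. In whole muscle, fewer cells of a type and less RNA per cell cannot be told apart. Each library is read as a separate animal, which the labels do not state in words. The p-values set differences between groups against a spread between libraries that is estimated over all groups of the muscle. A gene is called where edgeR's quasi-likelihood test gave a Benjamini-Hochberg adjusted p under 0.05 over all genes tested in that muscle (15097 in quadriceps and 14523 in gastrocnemius). All 6 genes passed the filter on low counts in both muscles. Libraries of 2 compared groups did not overlap for 20.2% to 34.5% of all tested genes in quadriceps. In gastrocnemius the share was 6.67% to 21.3%, so a lack of overlap is common. Adjusted p values and standard errors (SE) come from this test.

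Per kilobase of exon, Myf6 was the most abundant of the 6 in quadriceps, with a median over the 24 libraries of 66.5 CPM per kb. Mstn followed at 19.6, Myod1 at 10.4 and Myog at 3.75 CPM per kb. Myf5 (0.502) and Pax7 (0.353 CPM per kb) were the lowest. The order was the same in gastrocnemius, where the medians over 16 libraries were 57 for Myf6, 21.2 for Mstn, 10.5 for Myod1, 2.62 for Myog, 0.596 for Myf5 and 0.374 CPM per kb for Pax7. Myf5 rested on 24 to 106 counts a library in quadriceps and Pax7 on 40 to 202, while Myf6 had 2588 to 7169 counts. The SE of a log2 fold change between 2 quadriceps groups was widest for Myod1 (0.37), at 0.26 to 0.28 for Myf5, 0.26 to 0.27 for Myog, 0.18 to 0.20 for Pax7, 0.20 for Mstn and 0.14 to 0.15 for Myf6. Between the lowest and the highest quadriceps group, the means of Myog differed by 4.94 times, of Myod1 by 2.5, of Pax7 by 2.39, of Myf6 by 2.33, of Mstn by 1.68 and of Myf5 by 1.65 times.

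**Figure D1:**
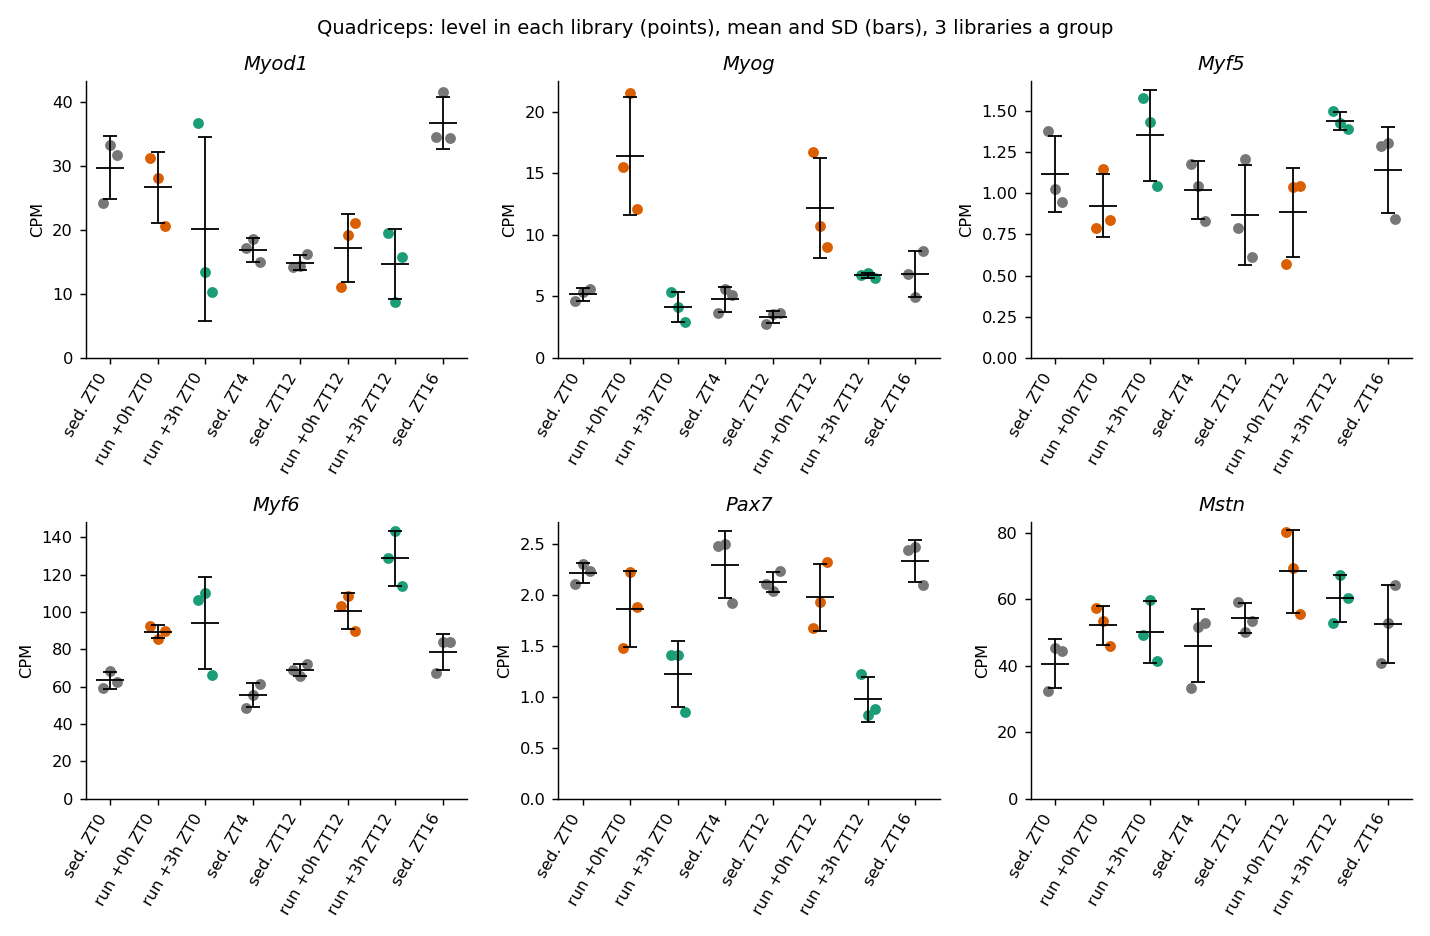
CPM of each gene in the 8 quadriceps groups (grey: sedentary, orange: at the end of the run, green: 3 h later); points are libraries, horizontal bars the means and vertical bars the SD over 3 libraries. The +0h points of Myog lie above those of every other group, and the +3h points of Pax7 lie below those of every other group.

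The first comparison asks what a run to exhaustion had done to the muscle at its end. Myog was raised in both sessions. In the ZT0 session it stood at 15.54, 21.6 and 12.1 CPM in the 3 runners and at 4.61, 5.32 and 5.63 CPM in the sedentary ZT0 mice. This was a 3.17-fold rise (log2 fold change 1.66, SE 0.26, adjusted p = 0.00081). In the ZT12 session the runners had 16.7, 10.7 and 9.05 CPM and the sedentary ZT12 mice 2.73, 3.58 and 3.67 CPM (log2 fold change 1.87, SE 0.27, adjusted p = 0.00038). The groups did not overlap in either session, as for 24.9% and 20.2% of all tested genes. Every +0h library also lay above every library of the other 6 quadriceps groups, whose highest value was 8.69 CPM in sedentary ZT16 muscle. The size turned on the control: against sedentary ZT16, the other sedentary group that brackets the ZT12 session, the change was 0.83 (SE 0.26, adjusted p = 0.052) and was not called, whereas in the ZT0 session the change against sedentary ZT4 was 1.80 (adjusted p = 0.0004).

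At 3 h Myog was no longer called against the sedentary group of either session. In the ZT0 session the +3h libraries had 5.37, 4.14 and 2.96 CPM, against 3.62, 5.58 and 5.09 CPM in sedentary ZT4 muscle (log2 fold change -0.19, SE 0.27, adjusted p = 0.71). At +3h of the ZT12 session they were 6.72, 6.93 and 6.49 CPM, against 6.85, 4.97 and 8.69 CPM in sedentary ZT16 muscle (-0.02, SE 0.26, adjusted p = 0.97). From +0h to +3h Myog fell by 1.99 in the ZT0 session (SE 0.27, adjusted p = 6.1e-05) and by 0.86 in the ZT12 session (SE 0.26, adjusted p = 0.028). The second fall was not called without treadmill +0h ZT12 replicate 1, the highest of its group (-0.56, adjusted p = 0.17), nor without any of the 3 +3h libraries. Against sedentary ZT12 muscle, the +3h level of the ZT12 session was higher by 1.01 (SE 0.27, adjusted p = 0.012), so whether Myog was called at 3 h turned on which sedentary group was taken.

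Myf6, which adult fibres carry at the highest level of the family, rose at both times in both sessions. At +0h of the ZT0 session it stood at 92.8, 85.8 and 90.1 CPM against 59.3, 68.4 and 62.6 CPM in the sedentary mice (log2 fold change 0.50, SE 0.14, adjusted p = 0.044). In the ZT12 session the +0h libraries had 103, 109 and 89.9 CPM and the sedentary ZT12 libraries 68.9, 65.8 and 72.2 CPM (0.55, SE 0.14, adjusted p = 0.034). The libraries did not overlap in either session, as for 24.9% and 20.2% of all tested genes. Both calls lie close to the threshold. The first was lost without any 1 of its 6 libraries, with log2 fold changes of 0.45 to 0.55. The second was lost without 5 of 6, over a range of 0.49 to 0.62. Against sedentary ZT16 the second was 0.36 (adjusted p = 0.14). Fibre markers were also higher at +0h. The 8 muscle fibre markers summed to 149682 to 152599 CPM in the ZT12 session against 121141 to 140650 CPM in the sedentary mice, and 9 fast fibre markers to 185189 to 192522 against 148632 to 169727 CPM, with no marker called. Muscle fibre sums of the ZT0 session overlapped (122259 to 143162 against 115503 to 125448 CPM), the fast fibre sums did not (142725 to 175920 against 126959 to 141718 CPM, 1 of 9 called), and 7 macrophage markers summed to 115 to 143 against 81.6 to 97.2 CPM, with none called. Their part in the rises of Myog and Myf6 was not tested.

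At 3 h Myf6 was again called in both sessions. The +3h libraries of the ZT0 session had 106, 110 and 66.1 CPM, and the sedentary ZT4 libraries 48.8, 55.7 and 61.6 CPM (log2 fold change 0.77, SE 0.15, adjusted p = 0.0015). Replicate 3 was well below the other runners and just above the highest control, and with only these groups in the fit the call was lost (0.76, adjusted p = 0.093). In the ZT12 session all 3 runners were high, at 129, 144 and 114 CPM, against 67.4, 83.9 and 84.2 CPM in sedentary ZT16 muscle (0.72, SE 0.14, adjusted p = 0.0018). These were the highest Myf6 values of the 40 libraries. The change from +0h to +3h was 0.07 (adjusted p = 0.79) and 0.36 (adjusted p = 0.10) in the sessions and was not called.

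Of the 6 genes, Myog and Myf6 were the 2 called at +0h in each session, both raised. Over all tested genes, 6.82% were called at +0h of the ZT0 session and 4.60% at +0h of the ZT12 session. These shares moved with single libraries: the first, 1029 genes, was 390 genes without sedentary ZT0 replicate 1, and the second, 695 genes, was 380 without sedentary ZT12 replicate 1. At +3h, Myf6 and Pax7 were called in the ZT0 session, where 13.6% of all genes were, and Myf6, Pax7 and Myod1 in the ZT12 session, where 17.2% were. From +0h to +3h, Myog alone was called in the ZT0 session (14.1% of all genes) and Myog and Pax7 in the ZT12 session (15.8%). The genes were chosen with results of these data known, so these shares describe them and support nothing further. The +3h and recovery comparisons share the +3h libraries, and the +0h and recovery comparisons the +0h libraries.

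**Figure D2:**
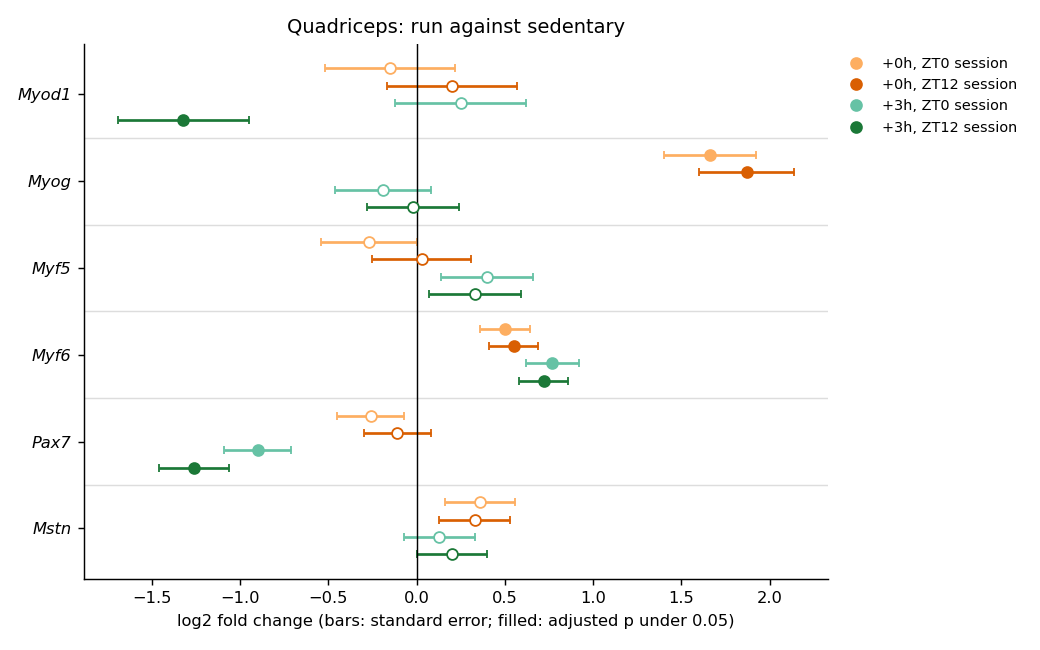
Log2 fold change of each gene against the sedentary group of its session, with the standard error, for +0h (orange) and +3h (green) of the 2 sessions; filled points were called. Myog is filled at +0h only, Myf6 in all 4 comparisons and Pax7 at +3h only.

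Pax7, the satellite cell factor, was lower 3 h after the run. Its values in the ZT0 session were 1.41, 1.41 and 0.852 CPM in runners and 2.48, 2.50 and 1.92 CPM in sedentary ZT4 mice (log2 fold change -0.90, SE 0.19, adjusted p = 0.0038). In the ZT12 session they were 1.23, 0.821 and 0.879 CPM in runners and 2.44, 2.47 and 2.10 CPM in sedentary ZT16 mice (-1.26, SE 0.20, adjusted p = 0.00015), a 2.4-fold difference. The 6 libraries taken at 3 h were the lowest of the 24 for this gene. Leaving out single libraries kept both calls, with log2 fold changes of -1.03 to -0.70 and -1.45 to -1.15, and the other sedentary control gave -0.85 (adjusted p = 0.0061) and -1.13 (adjusted p = 0.00046). The first call was lost when only its 2 groups were fitted (-0.91, adjusted p = 0.053).

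At the end of the run Pax7 was not called. Runners had 1.48, 2.23 and 1.88 CPM in the ZT0 session against 2.10, 2.30 and 2.24 CPM (-0.26, SE 0.19, adjusted p = 0.45), and 1.68, 1.93 and 2.33 CPM in the ZT12 session against 2.11, 2.04 and 2.23 CPM (-0.11, SE 0.19, adjusted p = 0.85). From +0h to +3h it fell by 1.02 in the ZT12 session (SE 0.20, adjusted p = 0.0013). In the ZT0 session the change was -0.59 (SE 0.20, adjusted p = 0.054) and was not called. The libraries did not overlap, as for 25.6% of all tested genes.

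Most other satellite cell markers did not fall with Pax7. Of the 14 markers tested, Pax7 and Pax3 were the 2 that fell at +3h, in each session. In the ZT0 session 1 rose and in the ZT12 session 5 rose, where 13.6% and 17.2% of all genes were called. Pax3 stood at 0.544 ± 0.129 CPM against 1.60 ± 0.221 CPM in the ZT0 session (SD, n = 3 each; log2 fold change -1.55, SE 0.30, adjusted p = 0.0015), and at 0.692 ± 0.162 against 1.90 ± 0.796 CPM in the ZT12 session (-1.47, SE 0.28, adjusted p = 0.0011). Sdc4, a surface proteoglycan of satellite cells that other cells also make, rose by 1.07 and 1.13 (adjusted p = 5.7e-06 and 1.2e-06), and it was already raised at +0h, by 0.87 and 1.19. In the ZT12 session Des, Cdh15, Vcam1 and Calcr rose too. The markers of this list are not all confined to satellite cells. At +3h of that session they summed to 3476 to 4100 CPM, far above the level of Pax7. Calcr, the calcitonin receptor of quiescent satellite cells, had 0.691 ± 0.160 against 0.382 ± 0.0754 CPM there (0.86, SE 0.29, adjusted p = 0.046), and Cdh15, M-cadherin, had 20.4 ± 0.912 against 16.3 ± 0.974 CPM (0.32, SE 0.09, adjusted p = 0.015). In the ZT0 session the change of Calcr was 0.11 (adjusted p = 0.85) and of Cdh15 -0.02 (adjusted p = 0.93). The median log2 fold change of the list was 0.06 in the ZT0 session and 0.21 in the ZT12 session, where the medians over all tested genes were -0.01 and 0.00. Muscle fibre markers were also higher at +3h of the ZT12 session, at 142018 to 154270 CPM in sum against 116107 to 127082 CPM in sedentary ZT16 muscle, with 3 of 8 called. In the ZT0 session their sums overlapped, at 127570 to 142172 against 119480 to 131615 CPM, and none was called. Their part in the fall of Pax7 was not tested.

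**Figure D3:**
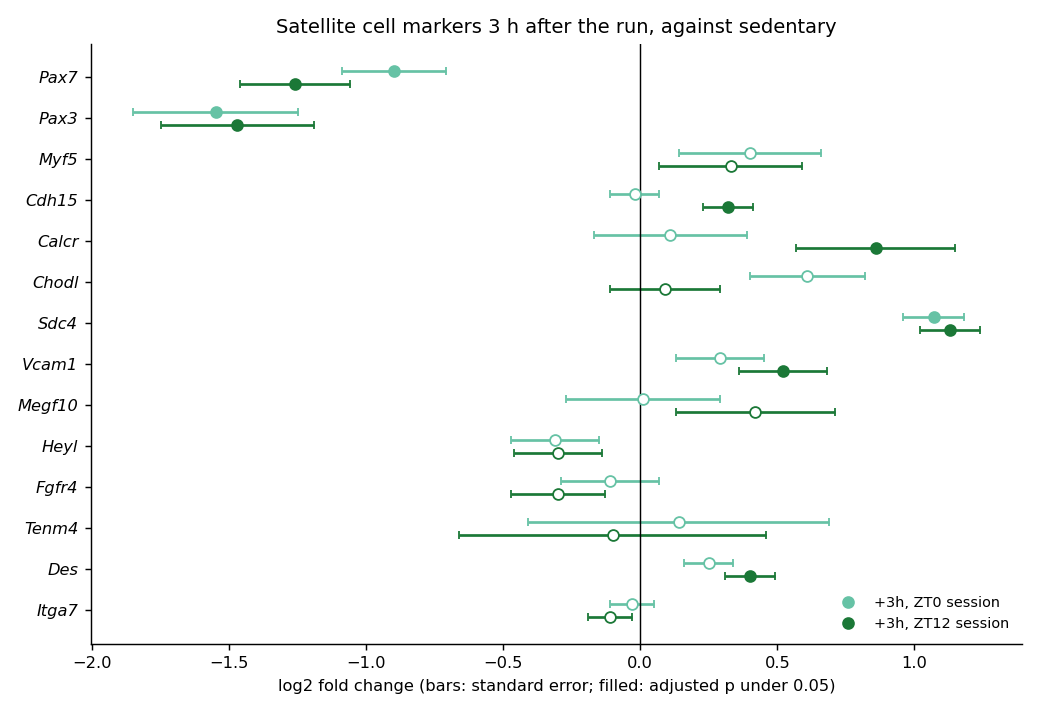
Log2 fold change at +3h against the sedentary group of the session for 14 satellite cell markers, with the standard error; light green is the ZT0 session and dark green the ZT12 session, and filled points were called. Pax7 and Pax3 lie left of 0 in both sessions, and Sdc4 lies to the right at 1.07 and 1.13.

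Myf5, the other satellite cell factor among the 6, was called in no comparison. It ran from 0.572 to 1.58 CPM over the 24 quadriceps libraries. At +3h the runners had 1.58, 1.43 and 1.04 CPM in the ZT0 session against 1.18, 1.05 and 0.833 CPM (log2 fold change 0.40, SE 0.26, adjusted p = 0.36), and 1.5, 1.42 and 1.39 CPM in the ZT12 session against 1.28, 1.30 and 0.842 CPM (0.33, SE 0.26, adjusted p = 0.44), where the libraries did not overlap. In that comparison 32.9% of all tested genes showed no overlap. The estimates of Myf5 at 3 h thus lay on the other side of 0 from those of Pax7, without a call. From +0h to +3h of the ZT12 session the change was 0.70 (SE 0.27, adjusted p = 0.081). With lane 1 alone that change was 1.11 and was called (adjusted p = 0.014).

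Myod1 was not called at the end of the run. Runners had 31.3, 28.1 and 20.6 CPM in the ZT0 session against 24.2, 33.4 and 31.8 CPM (log2 fold change -0.15, SE 0.37, adjusted p = 0.85), and 11.1, 19.3 and 21.1 CPM in the ZT12 session against 14.2, 14.3 and 16.2 CPM (0.20, SE 0.37, adjusted p = 0.86). At +3h of the ZT12 session it was lower than in sedentary ZT16 muscle, at 19.6, 8.82 and 15.8 CPM against 34.6, 41.5 and 34.4 CPM (-1.32, SE 0.37, adjusted p = 0.021). The difference turned on the control group. Against sedentary ZT12 muscle, with 14.2 to 16.2 CPM, the change was -0.02 (adjusted p = 0.98), and the call was also lost without treadmill +3h ZT12 replicate 2 (-1.06, adjusted p = 0.10) or 3 (-1.38, adjusted p = 0.058) or sedentary ZT16 replicate 2 (-1.23, adjusted p = 0.065).

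At +3h of the ZT0 session the Myod1 libraries disagreed, at 36.7, 13.5 and 10.3 CPM, against 17.2, 18.6 and 14.97 CPM in sedentary ZT4 muscle (0.25, SE 0.37, adjusted p = 0.74). The library at 36.7 CPM, replicate 1, also had the most slow fibre marker signal of its group (1847 against 87.5 and 329 CPM) and the most tendon marker signal (883 against 252 and 576 CPM). Other groups went either way. The library with most slow fibre signal had the lowest Myod1 in sedentary ZT0 muscle (2142 and 24.2 CPM). It had the highest at +0h of the ZT12 session (329 and 21.1 CPM). The part of these tissues in the Myod1 level was not tested. Without treadmill +3h ZT0 replicate 1, the change from +0h to +3h of the ZT0 session was -1.17 and was called (adjusted p = 0.016). With that library the change was -0.42 (adjusted p = 0.51).

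The responses of the 6 genes were not shown to differ between the sessions. For the difference of the +0h responses (ZT12 minus ZT0), 0% of all tested genes were called by edgeR's quasi-likelihood test. At an unadjusted p under 0.05 there were 1912 genes, none of them among the 6, and DESeq2 called 18. Without treadmill +0h ZT0 replicate 2 edgeR called 322 genes, and still none of the 6. The difference was 0.21 (SE 0.37) for Myog and 0.05 (SE 0.20) for Myf6, with 95% normal intervals from -0.52 to 0.93 and from -0.35 to 0.45. For the +3h responses, where 1.59% of all genes were called (240 genes, and 107 to 235 without 1 library), none of the 6 was by edgeR or DESeq2, and 1 had an unadjusted p under 0.05. That gene, Myod1, had the largest estimate, -1.57 (SE 0.53, adjusted p = 0.17), and Pax7 had -0.36 (SE 0.28, adjusted p = 0.65, interval -0.90 to 0.18).

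Myostatin (Mstn) was called in none of the 16 comparisons by this test. In the quadriceps groups it averaged 40.6 ± 7.27 CPM in sedentary ZT0 muscle, the lowest, and 68.4 ± 12.47 CPM at +0h of the ZT12 session, the highest (SD, n = 3 each), and every neighbouring pair of groups in the order of means overlapped. At +0h of the ZT0 session the runners had 57.2, 53.4 and 45.8 CPM and the sedentary mice 32.3, 45.3 and 44.3 CPM. The libraries did not overlap, as for 24.9% of all tested genes, and the log2 fold change was 0.36 (SE 0.20, adjusted p = 0.29). In the ZT12 session the values were 80.3, 69.3 and 55.4 CPM against 59.2, 50.2 and 53.5 CPM (0.33, SE 0.20, adjusted p = 0.43). The 95% normal intervals were -0.03 to 0.75 and -0.06 to 0.72. At +3h the changes were 0.13 (SE 0.20, adjusted p = 0.75) and 0.20 (SE 0.20, adjusted p = 0.57).

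Some genes that carry the myostatin signal were called 3 h after the run, when 13.6% of all genes were in the ZT0 session and 17.2% in the ZT12 session. Among the 7 receptors tested, Acvr2b, the main type II receptor of myostatin, fell in both sessions: it stood at 17.1 ± 6.37 against 49.7 ± 3.49 CPM in the ZT0 session (log2 fold change -1.54, SE 0.22, adjusted p = 0.00015) and 21.6 ± 3.5 against 39.0 ± 8.68 CPM in the ZT12 session (-0.86, SE 0.22, adjusted p = 0.0097). In the ZT0 session the type I receptor Acvr1b fell by 0.51 (adjusted p = 0.0097), while Tgfbr1 rose by 0.28 and the co-receptor Tgfbr3 by 0.41 (adjusted p = 0.015 and 0.019). The counts were 2 raised and 2 lowered of 7 in the ZT0 session and 1 lowered of 7 in the ZT12 session. At +0h no receptor was called in the ZT0 session and only Tgfbr1, raised by 0.29, in the ZT12 session (adjusted p = 0.027). The shares of all genes called at +0h were 6.82% and 4.60%.

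Among 9 SMAD effectors and intracellular inhibitors, 1 rose and 3 fell at +3h of the ZT0 session, and 1 rose and 4 fell in the ZT12 session. Smad3, a signal transducer of myostatin, rose by 0.98 (219 ± 55.1 against 111 ± 17.0 CPM, adjusted p = 0.0013) and by 1.03 (252 ± 21.6 against 124 ± 12.3 CPM, adjusted p = 0.0006). Its partner Smad2 fell by 0.26 and 0.28 (adjusted p = 0.013 and 0.0049), the inhibitory Smad6 fell by 0.85 and 0.86, and the ubiquitin ligase Smurf1 by 0.45 and 0.43. At +0h, Skil, a repressor of SMAD transcription, rose by 0.82 in the ZT0 session (adjusted p = 0.035) and by 1.32 in the ZT12 session (adjusted p = 0.0017), where Smad7 and Smad3 also rose. The median log2 fold changes of the list were 0.06 and 0.12 at +0h and -0.02 and -0.15 at +3h. The shares of all genes called were 6.82% and 4.60% at +0h and 13.6% and 17.2% at +3h.

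Few of the ligands, proteases and extracellular inhibitors were called. The shares of all genes called were 6.82% at +0h of the ZT0 session, and 13.6% and 17.2% at +3h of the 2 sessions. Tgfb2 rose at +3h in both sessions (0.84 and 0.57, adjusted p = 0.0024 and 0.024), 1 of 6 ligands each time. The protease Tll1, which belongs to a family that frees myostatin from its propeptide, fell in the ZT0 session (-0.83, adjusted p = 0.029), 1 of 3 tested of the 4 proteases listed. Of 7 extracellular inhibitors, Ltbp3 rose at +0h of the ZT0 session (0.24, adjusted p = 0.038). Wfikkn1, at 0.0994 ± 0.0661 against 0.270 ± 0.0348 CPM, fell at +3h of the ZT12 session (-1.38, adjusted p = 0.032). These levels lie below those of all 6 genes and rest on few counts.

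Partners and regulators of the MyoD family were next, a list of 36 genes. At +0h, 2 fell in the ZT0 session (Tcf4 by 0.24 and Snai2 by 0.85) and 2 rose in the ZT12 session, among them Id1, an inhibitor that binds the partners of MyoD, which rose by 1.32 (adjusted p = 0.00015). At +3h, 4 rose and 4 fell in the ZT0 session, and 4 rose and 5 fell in the ZT12 session. Msc (musculin), a repressor of the same helix-loop-helix class, stood at 2.26 ± 0.0885 against 0.932 ± 0.0814 CPM in the ZT0 session (log2 fold change 1.28, SE 0.18, adjusted p = 8.4e-05) and rose by 1.61 in the ZT12 session (SE 0.18, adjusted p = 3.1e-06). Klf5 rose by 1.96 and 1.92, and Tcf3, which encodes the E-protein partner, fell by 0.53 in the ZT0 session (adjusted p = 3.7e-05) and by 0.34 in the ZT12 session (adjusted p = 0.0014). The medians of the list at +3h were 0.00 and -0.08, and the shares of all genes called were 13.6% and 17.2%. At +0h the shares were 6.82% and 4.60%.

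A list of 20 genes tied to myogenin in denervated muscle and at the neuromuscular junction was also measured. Of these, none was called at +0h in either session, when Myog was high and 6.82% and 4.60% of all genes were called. At +3h, 6 rose and 1 fell in the ZT0 session, and 7 rose and 2 fell in the ZT12 session (medians 0.23 and 0.17), while 13.6% and 17.2% of all genes were called. Trim63, a ubiquitin ligase of muscle atrophy, stood at 1256 ± 122 against 259 ± 44.1 CPM in the ZT0 session (log2 fold change 2.28, adjusted p = 3.7e-05) and rose by 3.55 in the ZT12 session (adjusted p = 2.2e-07). Gadd45a rose by 1.27 and 1.87, and Runx1 and Musk, the receptor kinase of the junction, by 1.64 and 1.37 in the ZT0 session and by 1.61 and 1.25 in the ZT12 session. Lrp4, the agrin receptor, fell by 0.50 in the ZT0 session (adjusted p = 0.0015) and by 1.07 in the ZT12 session (adjusted p = 2.1e-07). The difference of the +3h responses was called for Fbxo32 (1.93, SE 0.32, adjusted p = 0.0047), Dok7 (-1.06, adjusted p = 0.028) and Lrp4 (-0.57, adjusted p = 0.033). Over all genes this comparison called 240, and 107 to 235 without 1 library. No such range is given for these genes.

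In the Notch pathway, which keeps satellite cells quiescent, 1 of 17 genes rose at +0h of the ZT0 session (6.82% of all genes called). In the ZT12 session 5 rose (4.60% of all genes called), and none fell in either. The target Hes1 rose in both, by 1.66 (22.1 ± 2.40 against 7.06 ± 2.15 CPM, adjusted p = 0.0031) and by 1.96 (27.5 ± 5.21 against 7.09 ± 1.32 CPM, adjusted p = 0.00096). At +3h, 1 rose and 4 fell in the ZT0 session, among them Nrarp (-1.78, adjusted p = 0.00014) and the ligand Dll4 (-0.71), and 2 rose and 5 fell in the ZT12 session, among them Dll1 (-2.06, adjusted p = 0.00034) and Hes1 (-1.31, adjusted p = 0.007). Notch3 fell in both, by 0.36 and 0.51. The medians at +3h were -0.29 and -0.22, while 13.6% and 17.2% of all genes were called. Notch genes are also active in vessels, and 6 endothelial markers moved in part. They summed at +0h of the ZT0 session to 236 to 249 CPM against 265 to 315 CPM, with Kdr and Tek lowered, and in the ZT12 session to 170 to 195 against 175 to 227 CPM, with none called. At +3h the sums were 253 to 312 against 253 to 303 CPM in the ZT0 session, with Pecam1 raised, and 261 to 279 against 231 to 256 CPM in the ZT12 session, without overlap, with Pecam1 raised and Emcn lowered. The part of vessels was not tested.

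Of 15 genes of myoblast differentiation and fusion, the cell cycle inhibitor Cdkn1a rose at +0h in both sessions (1.79 and 1.69, adjusted p = 0.0016 and 0.0029). Ccnd3 rose by 0.44 and Jam2 fell by 0.42 at +0h of the ZT0 session. At +3h, Jam3 fell in the ZT0 session (-0.42) and Cdkn1a (1.85) and Cdh15 rose in the ZT12 session. Mymk, the fusion protein of myoblasts, and Myh3, the embryonic myosin, were called in none of the 4 comparisons. The shares of all genes called were 6.82% and 4.60% at +0h and 13.6% and 17.2% at +3h.

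Without a run, the sedentary groups show the course over the day. They are also the controls of the run comparisons, so both kinds of comparison share libraries. Over the 4 sedentary groups Myod1 was the 1 gene of the 6 called by the F test (adjusted p = 0.042), where 17.1% of all genes were. It was high at ZT0 (24.2, 33.4 and 31.8 CPM) and ZT16 (34.6, 41.5 and 34.4 CPM) and low at ZT4 (17.2, 18.6 and 14.97 CPM) and ZT12 (14.2, 14.3 and 16.2 CPM). The high and the low pair of groups, formed from these values, did not overlap. Over all tested genes, 34.5% showed no overlap between ZT12 and ZT0 and 26.3% between ZT16 and ZT4. The 2 contrasts over the day gave -1.0 for ZT12 against ZT0 (SE 0.37, adjusted p = 0.078) and 1.12 for ZT16 against ZT4 (SE 0.37, adjusted p = 0.082), neither called. With only the groups compared in the fit, both were called (adjusted p = 0.0045 and 0.00096). The F test was close to the threshold, since it was lost in all 12 fits without 1 sedentary library (adjusted p 0.052 to 0.10).

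Myog had adjusted p = 0.053 and Myf6 0.081 in the same F test. Over 7 other settings of edgeR or DESeq2, adjusted p ran from 0.008 to 0.13 for Myog and from 0.023 to 0.12 for Myf6. Both were thus called in some settings. Myog was lowest at ZT12 (2.73, 3.58 and 3.67 CPM) and highest at ZT16 (6.85, 4.97 and 8.69 CPM). Between ZT12 and ZT0, where 16.1% of all genes were called, none of the 6 was by edgeR with all groups fitted. DESeq2 called Myod1, and 2 of the 6 had an unadjusted p under 0.05. With only the 2 groups fitted, edgeR called Myod1 and Myog (adjusted p = 0.0045 and 0.029). Myf6 was 1.42-fold higher at ZT16 than at ZT4, with 67.4, 83.9 and 84.2 against 48.8, 55.7 and 61.6 CPM (log2 fold change 0.50, SE 0.14, adjusted p = 0.039), where 7.16% of all genes were called. That call was lost without sedentary ZT4 replicate 1 or 2 or sedentary ZT16 replicate 2 or 3 (0.42 to 0.51 over these 4 fits). Pax7 was not called over the day, at means of 2.13 ± 0.0969 to 2.33 ± 0.206 CPM (adjusted p = 0.93), and Mstn had adjusted p = 0.35.

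From ZT0 to ZT12, 6 of the 36 partners and regulators of the MyoD family fell and none rose, a share near the 16.1% called over all genes. The myostatin antagonist Fst (follistatin) stood at 5.43 ± 0.509 CPM at ZT0 and 2.60 ± 0.161 CPM at ZT12 (log2 fold change -1.06, SE 0.21, adjusted p = 0.002), and Acvr1b at 43.4 ± 1.10 and 94 ± 17.9 CPM (1.11, SE 0.12, adjusted p = 6.9e-06). Between ZT16 and ZT4, Acvr1b rose by 0.49 and Fstl3, another antagonist, by 0.97 (adjusted p = 0.02 and 0.021). Adipocyte markers were high in sedentary ZT12 replicate 1 (1535 CPM in sum, against 560 and 270 CPM in the others), and endothelial markers summed to 175 to 227 CPM at ZT12 and 265 to 315 CPM at ZT0, with 5 of 6 lowered. Their part in these values was not tested.

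**Figure D4:**
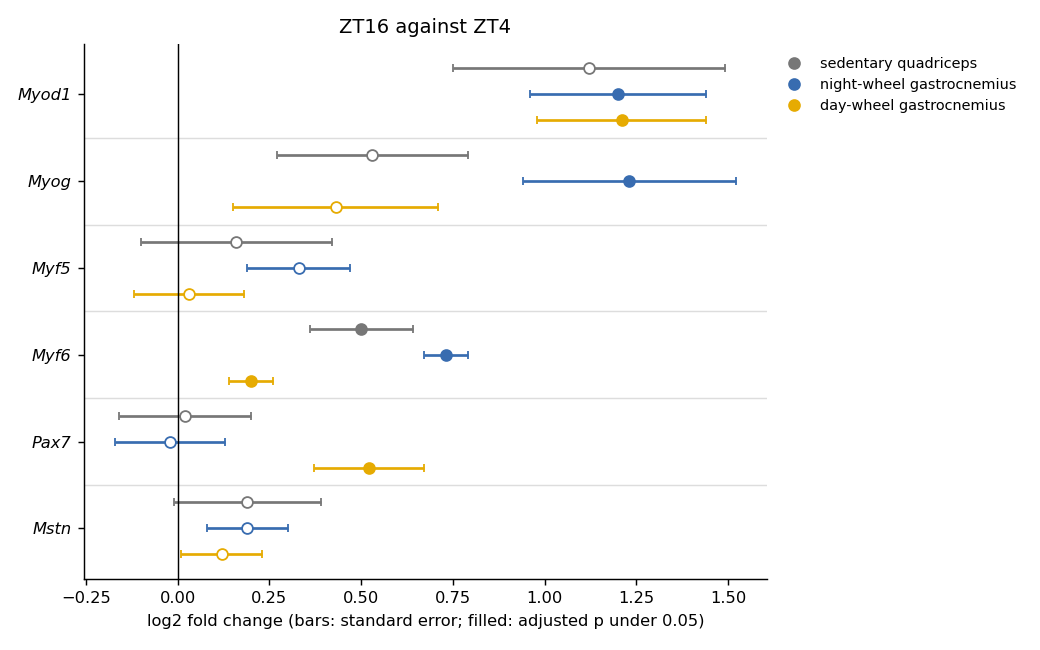
Log2 fold change of ZT16 against ZT4 for each gene in sedentary quadriceps (grey), night-wheel gastrocnemius (blue) and day-wheel gastrocnemius (yellow), with the standard error; filled points were called. Myod1 lies between 1.12 and 1.21 in all 3, and Myf6 lies at 0.50, 0.73 and 0.20.

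In gastrocnemius of mice with a wheel, Myod1 was called higher at ZT16 than at ZT4. The estimate in sedentary quadriceps was 1.12, with a wider SE (0.37), and was called only in some fits. The muscles were not tested against each other. In the night-wheel mice Myod1 had 13.5, 15.1, 16.3 and 14.0 CPM at ZT4 and 29.1, 45.4, 40.2 and 21.2 CPM at ZT16 (log2 fold change 1.20, SE 0.24, adjusted p = 0.0032). In the day-wheel mice it had 12.9, 15.3, 17.8 and 14.1 CPM at ZT4 and 48.9, 31.1, 26.8 and 31.9 CPM at ZT16 (1.21, SE 0.23, adjusted p = 0.0039). The times did not overlap in either schedule, as for 21.3% and 20.3% of all tested genes. The 2 effects differed by 0.00 (SE 0.33, interval -0.64 to 0.65). Between the schedules the change was 0.03 at ZT4 (SE 0.24, adjusted p = 0.95) and 0.03 at ZT16 (SE 0.23, adjusted p = 0.97). Leaving out single libraries gave 1.03 to 1.38 and 1.0 to 1.31, with every call kept.

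The time effect of Myf6 differed between the schedules. The night-wheel mice had 49.5, 53.5, 47.4 and 57.4 CPM at ZT4 and 87.6, 81.3, 88.2 and 88.5 CPM at ZT16 (log2 fold change 0.73, SE 0.06, adjusted p = 1.2e-07). The day-wheel mice had 71.6, 62.1, 65.1 and 68.9 CPM at ZT4 and 79.8, 72.4, 74.7 and 80.3 CPM at ZT16 (0.20, SE 0.06, adjusted p = 0.026). All 4 groups were separate, with the day-wheel groups between the night-wheel groups. In the comparisons of these groups, 6.67% to 21.3% of all tested genes showed no overlap. The difference of the time effects, day minus night wheel, was -0.53 (SE 0.08, adjusted p = 0.00051) and stayed between -0.59 and -0.49 without any single library. At ZT4 the day-wheel mice had more Myf6 (0.36, SE 0.06, adjusted p = 0.00059). At ZT16 they had less by estimate, without a call (-0.17, SE 0.06, adjusted p = 0.19). The libraries did not overlap there, as for 6.67% of all tested genes. The time effect in the day-wheel mice was weaker evidence, since 4 of 8 fits without 1 library lost it (0.16 to 0.23 over the 8).

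**Figure D5:**
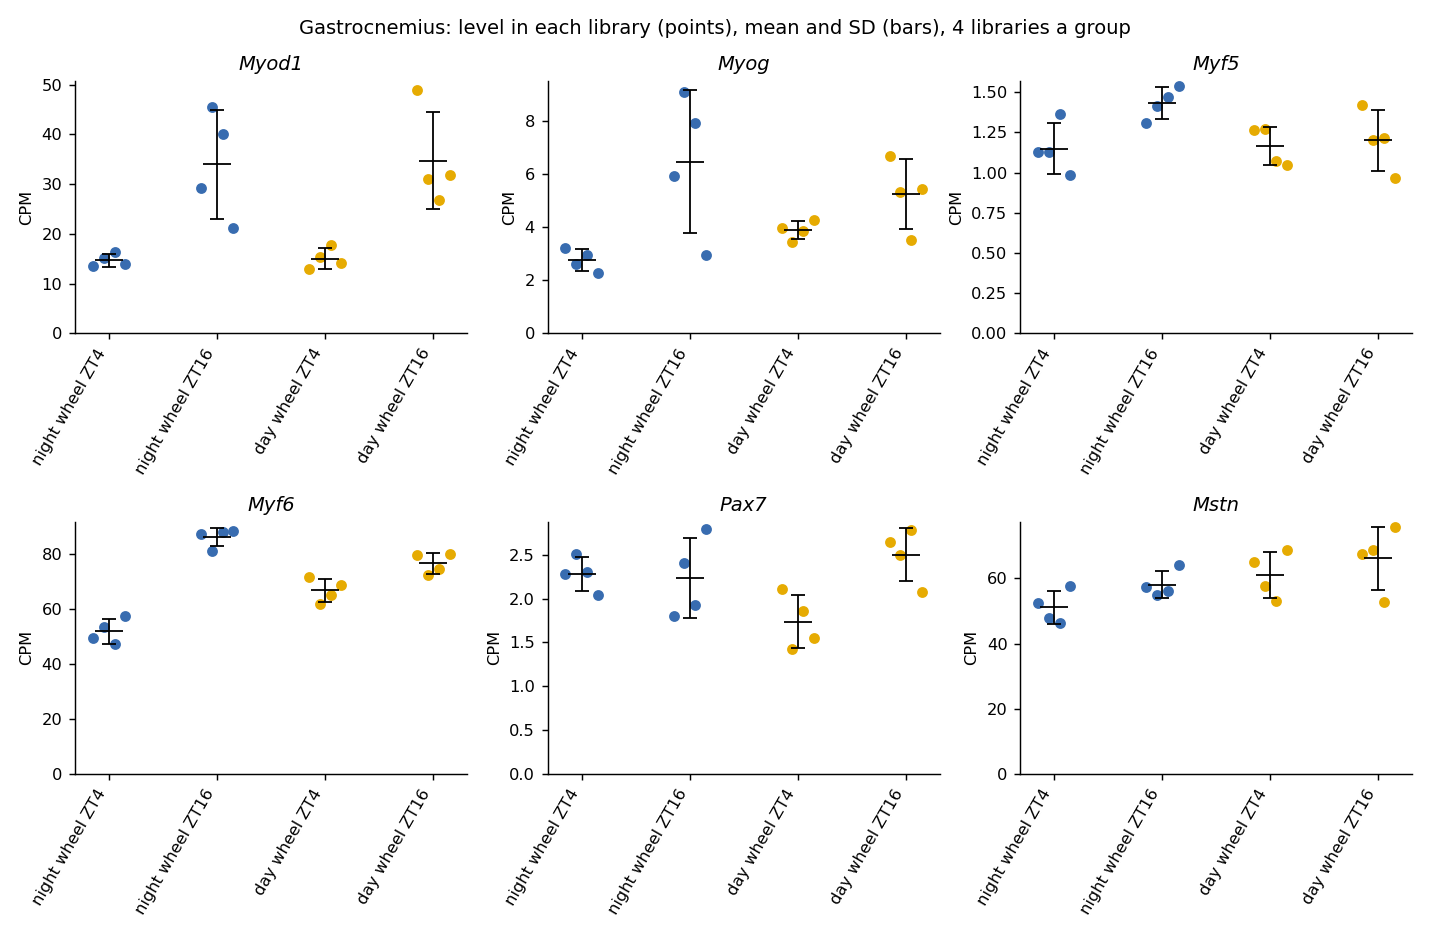
CPM of each gene in the 4 gastrocnemius groups (blue: night wheel, yellow: day wheel); points are libraries, horizontal bars the means and vertical bars the SD over 4 libraries. Myod1 is higher at ZT16 in both schedules, and the Myf6 points of the day-wheel groups lie between those of the night-wheel groups.

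Myog rose from ZT4 to ZT16 in the night-wheel mice, from 3.23, 2.61, 2.96 and 2.27 CPM to 5.94, 9.10, 7.91 and 2.94 CPM (log2 fold change 1.23, SE 0.29, adjusted p = 0.0087). Replicate 4 at ZT16 stayed at the ZT4 level, and the same library had the lowest Myod1 and the highest Pax7 of its group. In the day-wheel mice Myog had 3.99, 3.44, 3.85 and 4.26 CPM at ZT4 and 6.70, 5.33, 3.51 and 5.45 CPM at ZT16 (0.43, SE 0.28, adjusted p = 0.35). The difference of the time effects was -0.79 (SE 0.40, adjusted p = 0.25) and was not called with all libraries. Without night wheel ZT16 replicate 4 it was -1.04 and was called (adjusted p = 0.015). At ZT4 the schedules did not overlap for Myog, as for 21.1% of all tested genes, with the day-wheel mice higher (0.50, SE 0.29, adjusted p = 0.29). That contrast was not called in the main fit but was in another setting of edgeR (adjusted p = 0.015).

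Pax7 was called in the other schedule. The day-wheel mice had 2.11, 1.43, 1.86 and 1.56 CPM at ZT4 and 2.65, 2.50, 2.78 and 2.08 CPM at ZT16 (log2 fold change 0.52, SE 0.15, adjusted p = 0.026), with 1 library of ZT16 below the highest of ZT4. Of 8 fits without 1 library, 5 lost this call (0.44 to 0.63). The night-wheel mice had 2.28, 2.50, 2.30 and 2.04 CPM at ZT4 and 1.80, 2.41, 1.93 and 2.79 CPM at ZT16 (-0.02, SE 0.15, adjusted p = 0.95). The difference of the effects was 0.54 (SE 0.22, adjusted p = 0.13), not called, and 0.67 (adjusted p = 0.045) without night wheel ZT16 replicate 4. Day against night wheel gave -0.39 at ZT4 (SE 0.15, adjusted p = 0.10) and 0.15 at ZT16 (SE 0.15, adjusted p = 0.71). Neither was called, though the ZT4 contrast reached adjusted p = 0.041 in another setting of edgeR. Among the other satellite cell markers, Fgfr4 and Heyl also rose from ZT4 to ZT16 in the day-wheel mice (0.47 and 0.41, adjusted p = 0.0098 and 0.012). Sdc4 fell by 0.68 (adjusted p = 0.0027), so 3 of 14 rose and 1 fell, while 14.9% of all genes were called.

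Neither Myf5 nor Mstn was called in gastrocnemius by edgeR's test without a replicate block. With the block, Mstn was called between schedules at ZT4 (adjusted p = 0.0072, edgeR). Myf5 ran from 0.964 to 1.54 CPM over the 16 libraries, and its largest estimate was 0.33 between the times in night-wheel mice (SE 0.14, adjusted p = 0.13). Mstn averaged 51.1 ± 5.18 CPM in night-wheel mice at ZT4, 58.1 ± 4.15 at ZT16, and 61.1 ± 7.13 and 66.2 ± 9.67 CPM in day-wheel mice (SD, n = 4 each). The groups overlapped in this order. At ZT4 the day-wheel mice had 0.26 more on the log2 scale (SE 0.11, adjusted p = 0.13, interval 0.05 to 0.47).

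Read against all genes, the counts in gastrocnemius were 3 of the 6 called between the times in night-wheel mice (Myod1, Myog and Myf6; 18.8% of all genes), 3 in day-wheel mice (Myod1, Myf6 and Pax7; 14.9%), 1 between the schedules at ZT4 (Myf6; 13.1%) and none at ZT16 (0.565%, or 82 genes, and 19 to 163 without 1 library), where DESeq2 also called none and 1 of the 6 had an unadjusted p under 0.05. For the difference of the time effects 1 of 6 was called (Myf6; 9.74% of all genes). These comparisons share libraries with each other.

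In the same muscle, the type I receptor Acvr1b had the time effect in both schedules, with 41.2 ± 3.71 and 71.4 ± 7.74 CPM at ZT4 and ZT16 of the night-wheel mice (log2 fold change 0.80, SE 0.08, adjusted p = 5.1e-06) and 0.94 in the day-wheel mice (SE 0.08, adjusted p = 2e-06). Fst fell by 0.87 from ZT4 to ZT16 in night-wheel mice (adjusted p = 8.5e-05), and its time effect differed between the schedules (0.67, SE 0.18, adjusted p = 0.026). Of the 36 partners and regulators, 6 rose and 7 fell between the times in night-wheel mice (18.8% of all genes called). In day-wheel mice 5 rose and 2 fell (14.9% of all genes called). Tcf3 went in opposite directions, falling by 0.29 (adjusted p = 0.00057) in night-wheel mice and rising by 0.30 (adjusted p = 0.00068) in day-wheel mice, as did Bhlhe41, a circadian repressor that also acts on MyoD (-0.67 and 0.63). The differences of their time effects were 0.60 and 1.30 (adjusted p = 6.8e-05 for both). Endothelial markers were lower at ZT4 in day-wheel than in night-wheel mice (207 to 234 against 254 to 272 CPM in sum, 3 of 6 called). Macrophage markers were lower there too (59 to 74.5 against 79.2 to 96.3 CPM, 1 of 7 called), and so were fibroblast markers in part (357 to 579 against 571 to 845 CPM, 1 of 6 called). Of all genes, 13.1% were called between the schedules at ZT4. The part of these markers in the differences between the schedules was not tested.

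Genes whose levels followed each of the 6 most closely over the 24 quadriceps libraries were found by Pearson's r of log2 CPM among 11053 genes. The quadriceps libraries belong to 8 groups and differ in depth, so r is a description. For Myog they were Pxdc1 (r = 0.92), Gfpt2 (0.91), Uts2r (0.90), Itga5 (0.90) and Skil (0.90), and over the 16 gastrocnemius libraries Skil had r = 0.82 and Uts2r 0.76. For Myf6 they were Picalm (0.90), the metallothioneins Mt1 and Mt2 (0.88 each), Ddx21 (0.88) and Uap1 (0.87), with 0.27 to 0.69 in gastrocnemius. For Pax7 they were Dcp2 (0.92), Plekhh3 (0.90), Traf5 (0.89), 2700081O15Rik (0.89) and Bcl2l2 (0.88), and in gastrocnemius r of Dcp2 was -0.41. For Myod1 they were Timm8a1 (0.85 and, in gastrocnemius, 0.70), Glis2 (0.83 and 0.63), Igsf9b (0.81 and 0.21), Adgra2 (0.80 and -0.12) and Prdm16 (0.79 and 0.12). For Mstn they included Csnk1d (0.82), Mybpc2 (0.81), the fast myosin Myh4 (0.80) and Nudt18 (0.80), with 0.80 for Mybpc2 and 0.71 for Myh4 in gastrocnemius. The nearest genes to Myf5 reached 0.73 to 0.76, led by Foxp1, whose r in gastrocnemius was -0.27. Among the 6 themselves, Myf6 and Mstn had r = 0.68 in quadriceps and 0.57 in gastrocnemius, Myf6 and Pax7 -0.62 and 0.08, and Myod1 and Myog 0.24 and 0.84.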

How the data were processed

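Messenger RNA of quadriceps (24 libraries) and gastrocnemius (16) was sequenced after a stranded, polyA-selecting library kit, per the labels' protocols. The authors deposited estimated counts per gene for each of 2 lanes a library. The submitters' processing notes name kallisto 0.46.2, bcl2fastq 2.20.0.422, DESeq2 1.26.0 and the builds GRCm38.p6 and mm10. The sources used here do not give the way transcripts were summed to genes.

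Lanes were summed and rounded here. Genes were tested with edgeR 4.0.16 (limma 3.58.1, R 4.3.3; quasi-likelihood, robust fit, TMM, filterByExpr with a minimum count of 10), with all libraries of a muscle in 1 fit, Benjamini-Hochberg adjustment over all genes and a threshold of 0.05. The test was checked on simulated data. DESeq2 1.42.0 and the other alternatives are given in the closing section. Levels are CPM over TMM-scaled totals, given as each library's value or mean ± SD, and CPM per kb divides by the merged exon length in GENCODE. Fold changes are log2. The lowest chi-square per degree of freedom between libraries of 1 group was 6.18, so none was counted as a duplicate. Replicate numbers were not used as pairs. The median correlation of deviations was 0.002 between same-numbered quadriceps libraries (range -0.42 to 0.304) and 0.005 in gastrocnemius (-0.129 to 0.132). A median over all pairs cannot exclude that some libraries were paired.

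The 6 genes were always named. From each list, up to 4 called genes with the smallest p in a comparison were to be named. Other genes named from a list, such as Calcr, Cdh15, Des and Musk, were chosen after their values were seen. Up to 5 genes nearest to each of the 6 by Pearson's r (average log2 CPM of at least 1, prior count 0.5) were named. Some genes that these rules name are not reported here. The genes and lists were chosen with earlier results of these data known.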

Additional observations from a re-analysis of the deposited data

Results flagged for a closer look

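Of the 24 sets of 4 gastrocnemius libraries examined (6 genes in 4 groups), 1 held a library far from the others. For Myf6 in night wheel ZT16, replicate 2 (81.3 CPM) lay below the other 3 (87.6 to 88.5 CPM) by 0.872 of the group's whole range, above Dixon's 95% critical value. Chance flags about 1 in 20 such sets. The time effect of Myf6 in night-wheel mice was 0.69 to 0.78 without any single library.

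The time effect of Myf6, ZT16 against ZT4, differed between the wheel schedules by -0.53 on the log2 scale (day minus night, SE 0.08, adjusted p = 0.00051 by edgeR). It was 0.73 in night-wheel mice and 0.20 in day-wheel mice.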

How the results depend on the processing

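The alternatives were DESeq2, RLE size factors, no filter, each lane alone, only the groups compared, the other sedentary control, a replicate block and each library left out. Over these, 265 values of called genes kept their call and 60 lost it. Of values not called, 1152 kept their side of the threshold, 22 crossed it and 1 reversed. Causes were not tested. Depth was lowest for Myf5 (24 to 106 counts a library in quadriceps) and Pax7 (40 to 202).

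Counts of the 6 genes called changed as follows. At +0h of the ZT0 session the count was 1 without the filter, 1 with lane 1, 1 with lane 2 and 1 to 1 with a library left out. At +0h of the ZT12 session it was 1 with lane 2, 0 with the other sedentary control and 1 to 2 with a library left out. At +3h it was 0 with only the groups compared in the ZT0 session and 2 to 3 with a library left out in the ZT12 session. From +0h to +3h it was 2 with DESeq2 and 1 to 3 with a library left out in the ZT0 session, and 3 with lane 1, 1 with only the groups compared and 1 to 2 with a library left out in the ZT12 session. For the sedentary F test it was 3 with DESeq2, 0 without the filter, 0 with lane 1, 2 with lane 2, 0 with the replicate block, 3 with only these groups and 0 to 1 with a library left out. For sedentary ZT12 against ZT0 it was 1 with DESeq2 and 2 with only the groups compared. For sedentary ZT16 against ZT4 it was 2 with DESeq2, 0 without the filter, 0 with lane 2, 2 with only the groups compared and 0 to 1 with a library left out. Between schedules at ZT4 it was 2 with lane 1, 2 with the replicate block and 2 with only the groups compared. Between times it was 4 with the replicate block in night-wheel mice, and 2 with lane 1, 2 with lane 2 and 1 to 3 with a library left out in day-wheel mice. For the difference of time effects it was 1 to 3 with a library left out.

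Myf6 at +0h of the ZT0 session was 0.50 without the filter, 0.47 with lane 1, 0.52 with lane 2 and 0.45 to 0.55 with a library left out. At +0h of the ZT12 session it was 0.53 with lane 2, 0.36 with the other control and 0.49 to 0.62. With only the groups compared, +3h of the ZT0 session gave 0.76 for Myf6 and -0.91 for Pax7. In sedentary muscle Myf6 was 0.51 without the filter, 0.49 with lane 2 and 0.42 to 0.60. Myog at +0h of the ZT12 session was 0.83 with the other control, and its change at +3h there reversed from -0.02 to 1.01. Its fall to +3h was -0.86 with only the groups compared and -1.03 to -0.56 with a library left out. Myod1 at +3h of the ZT12 session was -0.02 with the other control and -1.58 to -1.06. Its F statistic was 5.602 without the filter, 5.742 with lane 1, 5.399 with the replicate block and 4.343 to 5.805. In day-wheel mice the time effect was 0.16 to 0.23 for Myf6, and for Pax7 0.48 with lane 1, 0.55 with lane 2 and 0.44 to 0.63.

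The replicate block called Mstn between schedules at ZT4 (0.26, adjusted p = 0.0072, edgeR). It also called Mstn between times in night-wheel mice (0.19, adjusted p = 0.025, edgeR). Whether replicate numbers pair libraries was not settled. Over all genes, fitting only the groups compared gave 529 called genes for 1029, 385 for 695, 1105 for 2052, 1 for 0 and 113 for 240 in the run comparisons, 654 for 2133 in the ZT0 recovery, 1597 for 2436 in sedentary ZT12 against ZT0 and 35 for 82 between schedules at ZT16. DESeq2 gave 18 for 0, 448 for 240 and 374 for 82. Single lanes gave 118 and 117 for 240. The other control gave 1180 for 695 and 915 for 0.

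Leaving out 1 library moved these counts over all genes by over 1.5 times. The ZT0 session at +0h (1029) gave 390 without sedentary ZT0 replicate 1 and 444 without treadmill +0h ZT0 replicate 1. The ZT12 session gave at +0h (695) 380 to 456 without sedentary ZT12 replicate 1 or treadmill +0h ZT12 replicate 1 or 2, and at +3h (2602) 1724 without treadmill +3h ZT12 replicate 3. The ZT0 recovery (2133) gave 1390 and 1411 without treadmill +3h ZT0 replicate 2 and treadmill +0h ZT0 replicate 1. The difference of +0h responses (0) gave 322 and 1 without treadmill +0h ZT0 replicates 2 and 3. The difference of +3h responses (240) gave 107 to 159 without treadmill +3h ZT0 replicate 1, treadmill +3h ZT12 replicate 2, any sedentary ZT4 library or sedentary ZT16 replicate 1 or 3. The sedentary F test (2578) gave 1558 without sedentary ZT12 replicate 2. Sedentary ZT12 against ZT0 (2436) gave 1283 to 1534 without sedentary ZT0 replicate 1 or 3 or sedentary ZT12 replicate 2. Sedentary ZT16 against ZT4 (1081) gave 588 to 683 without any sedentary ZT4 library or sedentary ZT16 replicate 1 or 2. Between schedules at ZT4 (1907) there were 1139 to 1248 without night wheel ZT4 replicate 2 or day wheel ZT4 replicate 3 or 4. At ZT16 (82) there were 163 without night wheel ZT16 replicate 1, and 19 to 51 without its replicate 2 or 3 or day wheel ZT16 replicate 2, 3 or 4.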
